A study of Mus musculus with 31 samples.

Results

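The genes described here are 8 mouse genes linked to Alzheimer, Parkinson or Huntington disease: App, Bace1, Mapt, Htt, Lrrk2, Park7, Pink1 and Apoe. They were chosen by name, as the array features that the probe gene table assigns to these symbols, and each gene had 1 feature, so that the genes make up 8 of the 16345 features measured. The features are 6847540 for App, 6988741 for Bace1, 6784498 for Mapt, 6929856 for Htt, 6832713 for Lrrk2, 6927075 for Park7, 6926267 for Pink1 and 6973587 for Apoe. The study used translating ribosome affinity purification, which pulls down the messages attached to tagged ribosomes of a marked cell type, and measured them on 31 mouse exon arrays. The marked cells carry the dopamine receptor Drd1a (listed as Drd1) or Drd2, which in the striatum mark the projection neurons of the direct and the indirect pathway. The 8 groups combine age (young, 6 weeks, or old, 2 years), the entire cortex or striatum, and Drd1a or Drd2 cells, with 4 arrays in each group except young striatum Drd1a, which has 3. All groups went through the same purification, and no treatment was given. The labels name neither the transgene, its promoter, the strain nor the sex, nor whether replicates come from different mice. The p-values below therefore reflect only sample-to-sample spread, which may be technical.

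App encodes the amyloid precursor protein, a membrane protein that is cut by beta-secretase, the product of Bace1, and then by gamma-secretase to release the amyloid beta peptide. Mapt encodes tau, which binds axonal microtubules and aggregates in Alzheimer disease and in several frontotemporal dementias. Htt encodes huntingtin, a scaffold of vesicle transport whose expanded glutamine tract causes Huntington disease, in which striatal projection neurons are lost early. Lrrk2 encodes a large kinase that phosphorylates Rab GTPases, Park7 (DJ-1) a redox-sensitive protein, and Pink1 a mitochondrial kinase that marks damaged mitochondria for removal; mutations in each cause Parkinson disease. Apoe encodes apolipoprotein E, a lipid carrier that in the brain is made mainly by astrocytes and, under some conditions, by neurons and microglia.

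The promoters of App, Apoe and Lrrk2 are shown because App and Apoe had the largest mean age changes of the 8 genes and Lrrk2 the largest difference toward Drd2 cells. Each run covers 250 bases before to 50 bases after a RefSeq transcription start in build GRCm38.p6, 5′ to 3′, and capitals mark the GC box GGGCGG, the motif bound by Sp1-type factors. App lies at chr16:85173658-85173957 on the minus strand, Apoe at chr7:19699139-19699438 on the minus strand (the most upstream of 3 starts listed), and Lrrk2 at chr15:91672974-91673273 on the plus strand.
App: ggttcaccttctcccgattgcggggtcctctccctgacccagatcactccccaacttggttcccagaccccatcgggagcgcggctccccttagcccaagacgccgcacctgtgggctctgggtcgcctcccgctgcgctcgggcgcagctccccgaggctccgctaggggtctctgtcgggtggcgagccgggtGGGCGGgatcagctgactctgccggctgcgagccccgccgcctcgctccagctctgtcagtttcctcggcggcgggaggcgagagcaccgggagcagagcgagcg
Apoe: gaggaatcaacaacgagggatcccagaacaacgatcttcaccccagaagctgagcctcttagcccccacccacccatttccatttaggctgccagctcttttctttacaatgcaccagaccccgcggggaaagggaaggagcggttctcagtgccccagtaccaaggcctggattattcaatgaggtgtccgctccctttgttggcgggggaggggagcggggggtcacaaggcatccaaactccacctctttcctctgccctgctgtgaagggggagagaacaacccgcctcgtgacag
Lrrk2: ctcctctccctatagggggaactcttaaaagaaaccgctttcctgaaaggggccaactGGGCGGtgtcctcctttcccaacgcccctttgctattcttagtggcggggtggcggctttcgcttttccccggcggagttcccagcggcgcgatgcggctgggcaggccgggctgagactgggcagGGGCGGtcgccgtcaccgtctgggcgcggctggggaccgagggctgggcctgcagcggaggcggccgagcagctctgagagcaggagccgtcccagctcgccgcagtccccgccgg
The sequence table held 6 of the 8 genes; Mapt and Bace1 were not matched. The App window held 1 GC box and had a GC content of 71.0%, the Lrrk2 window held 2 and had 68.7%, and the Apoe window held none and had 57.7%, against a median GC content of 52.7% over 32851 promoters. A GC box was present in 35.7% of all promoters. Neither a CCAAT box (CCAAT, present in 37.4% of promoters) nor a TATA box (TATAAA, 13.6%) was found in any of the 6 windows. E-boxes (CANNTG, 72.3% of promoters) numbered 2 in App, 1 in Lrrk2 and 0 in Apoe, and the core of the cyclic AMP response element, TGACG (20.8%), had 1 match in Lrrk2 and none in App or Apoe. All motifs were searched on both strands, and in the Lrrk2 window the E-box and the upstream GC box share a base. The matches describe letters and not binding.

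The deposited log2 values are centred so that a gene's median across the 31 arrays is 0, which means that 0 stands for its middle array and levels of different genes cannot be set against each other. Differences were tested with limma in 1 fit over all 31 arrays, and calls needed both an adjusted p below 0.05 (Benjamini-Hochberg, 16345 features) and a difference of 1.2-fold or more, as in the submitters' design. The number of arrays limits the precision: a typical feature's age change had a standard error of 0.0987, or 0.107 in striatal Drd1a cells. The median over all features was above 0.05 in 6 arrays and reached 0.13. As a check of the labels, Drd1 ranged from 0.070 to 1.86 in Drd1a arrays and from -3.13 to 0 in Drd2 arrays, and Drd2 ranged from -4.87 to -2.90 in Drd1a arrays and from 0 to 0.64 in Drd2 arrays. Within the Drd2 arrays, Drd1 was higher at 2 years, with a mean of -0.34 in old against -2.75 in young striatum and -1.18 against -2.91 in cortex. In tissue pools of this kind, fewer cells of a type and less RNA per cell cannot be told apart. The age, cell type and region comparisons below reuse the same 8 groups of arrays and are therefore not independent of each other.

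The 8 genes differed widely in how much they varied. Between the lowest and the highest of the 8 group means, Apoe spanned 1.87 log2 units, Lrrk2 1.20 and Mapt 0.99, which placed them at the 98.7, 96.2 and 94.2 percentiles of all features. App spanned 0.59, Bace1 0.36, Htt 0.35 and Pink1 0.29, and the median feature spanned 0.30. Park7 was the steadiest, with a span of 0.11 at percentile 9.5 and all 31 arrays between -0.11 and 0.13.

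**Figure D1:**
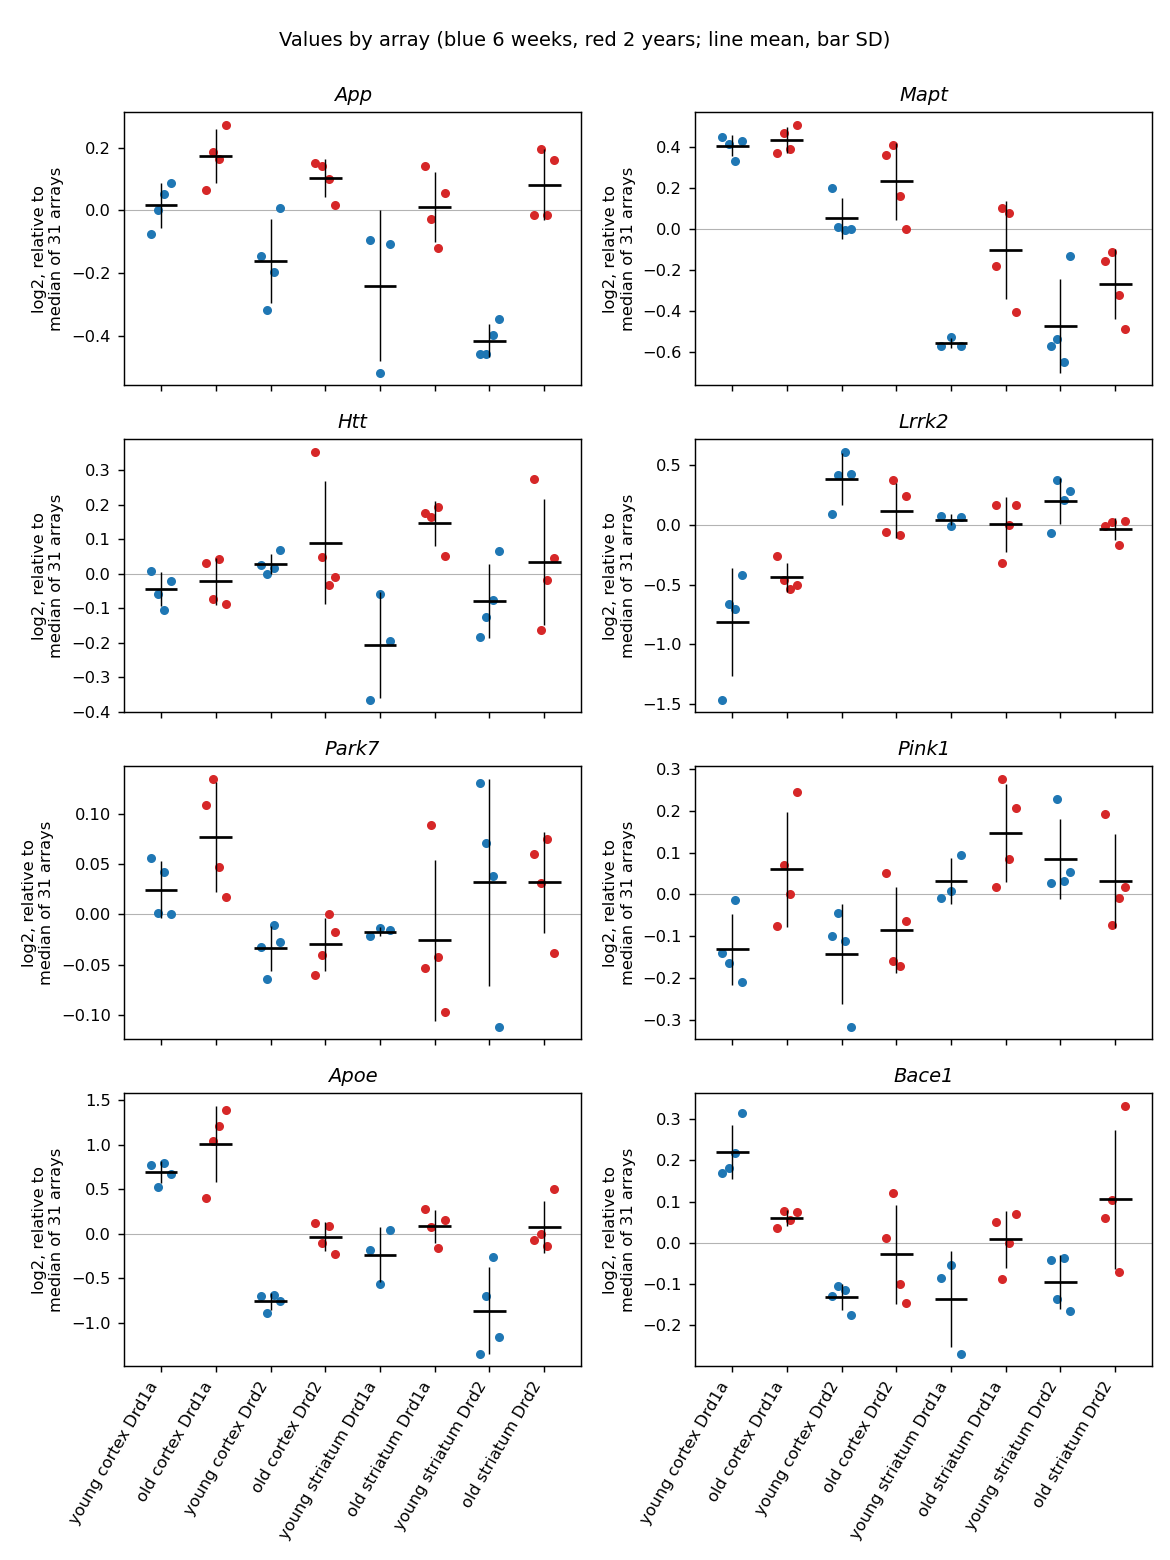
Value of each gene in every array (points; blue 6 weeks, red 2 years), with the group mean (line) and SD (bar), on the log2 scale relative to the gene's median over 31 arrays; the vertical scale differs between panels. Apoe spans 1.87 log2 units between group means and Park7 0.11.

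With age, App and Apoe rose and none of the 8 genes was called lower in any comparison. Averaged over the 4 region and cell type pairs, App was 0.29 ± 0.042 log2 units (SE) higher at 2 years, 1.22-fold, with an adjusted p of 1.34e-05, and Apoe was 0.58 ± 0.098 (SE) higher, 1.49-fold, with an adjusted p of 9.69e-05. The background for this mean was 5.07% of features called, 406 higher and 422 lower. Mapt (0.22 ± 0.055 SE, adjusted p = 0.00559) and Htt (0.14 ± 0.043 SE, adjusted p = 0.0226) passed the limma test for the mean but not the 1.2-fold threshold. The median mean change was 0.11 for the 8 genes and -0.0090 for all features. App, Mapt, Htt and Apoe had positive age changes in 4 of 4 comparisons, Bace1, Park7 and Pink1 in 3 of 4, and Lrrk2 in 1 of 4. The App mean fell just below 1.2-fold, to 0.26 log2 units, when young striatum Drd1a replicate 2 was left out, with an adjusted p of 1.79e-05.

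**Figure D2:**
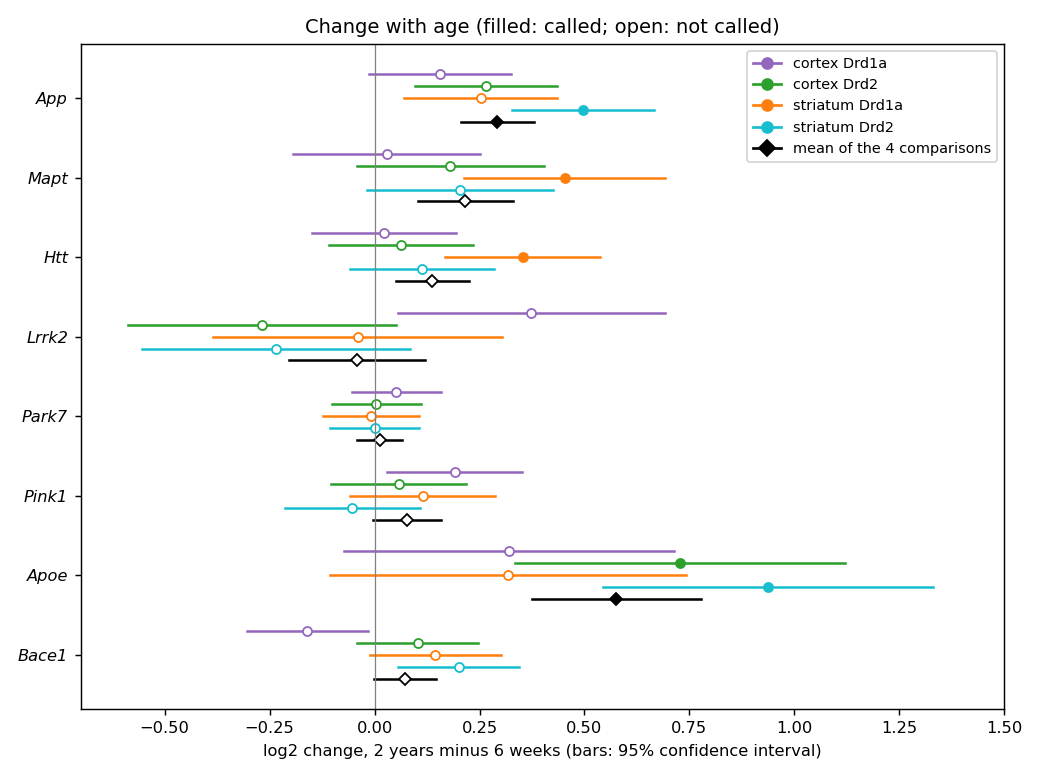
Age change of each gene (2 years minus 6 weeks, log2) in the 4 region and cell type pairs (coloured circles) and their mean (black diamonds), with 95% confidence intervals; filled symbols passed the test and the 1.2-fold threshold. All 5 App intervals and all 5 Apoe intervals are centred above 0, and the Park7 intervals lie close around 0.

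App rose in striatal Drd2 cells. The young striatum Drd2 arrays read -0.46, -0.46, -0.40 and -0.35 in replicates 1 to 4, and the old ones -0.017, 0.20, -0.016 and 0.16. Every old array lay above every young one, and the young group had the lowest App mean of the 8 groups. The change was 0.50 ± 0.083 (SE), 1.41-fold, with an adjusted p of 3.14e-04 by limma, in a comparison that called 5.70% of features; App and Apoe were the 2 of 8 genes called. This App call held under every alternative run and whichever array was left out.

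In the cortex, App in Drd2 cells read -0.14, -0.32, -0.20 and 0.0068 at 6 weeks and 0.15, 0.14, 0.10 and 0.017 at 2 years. The groups did not overlap, but the change of 0.27 ± 0.083 (SE) had an adjusted p of 0.0650 and was not called. It was called with array weights (adjusted p = 0.0473), with quantile normalization (adjusted p = 0.0251) and without young cortex Drd2 replicate 4 (adjusted p = 0.0428). In striatal Drd1a cells the young arrays read -0.096, -0.52 and -0.11 and the old ones 0.14, -0.027, -0.12 and 0.055, so that the lowest old array fell inside the young range. The change there was 0.25 ± 0.089 (SE, adjusted p = 0.122), and in cortical Drd1a cells it was 0.16 ± 0.083 (SE, adjusted p = 0.591). The age change of App did not pass the test of a difference between cell types or regions: in striatum the Drd1a change minus the Drd2 change was -0.24, with a 95% interval from -0.49 to 0.0054 and an adjusted p of 0.859.

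Bace1, the beta-secretase, was not called with age in any of the 4 comparisons. Its age changes ran from -0.16 ± 0.070 (SE) in cortical Drd1a cells, where the young arrays (0.17 to 0.32) all lay above the old ones (0.036 to 0.078), to 0.20 ± 0.070 (SE) in striatal Drd2 cells. Their adjusted p-values were 0.454 and 0.0930. The region interaction in Drd1a cells was 0.30 ± 0.10 (SE) with an adjusted p of 0.503.

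Of 20 measured genes of amyloid precursor processing, App and Bace1 included, 3 rose and none fell in the mean over the 4 age comparisons, where 5.07% of all features were called: Sorl1, App and Aplp2. Sorl1, the sorting receptor that steers the amyloid precursor protein away from the secretases, was 0.34 ± 0.058 (SE) higher with an adjusted p of 9.68e-05, and this call held whichever array was left out. Aplp2, the closest paralogue of App, stood at 0.27, just past the fold threshold. It fell short of it with a replicate block (0.26) and in 14 of 31 fits that left out 1 array, which gave 0.23 to 0.29. Itm2b, which encodes the dementia-linked membrane protein BRI2, rose by 0.32 ± 0.056 (SE) in striatal Drd2 cells with an adjusted p of 5.01e-04. By comparison, the list had 0 of 20 genes called in cortical Drd1a cells, 1 in cortical Drd2, 1 in striatal Drd1a and 3 in striatal Drd2 cells, all higher. The share of all features called was 0.453%, 3.63%, 3.43% and 5.70% in the same order. The list's median change in striatal Drd2 cells was 0.12, against -0.0084 for all features.

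Apoe rose in Drd2 cells of both regions. In striatum the young Drd2 arrays read -1.34, -0.69, -0.26 and -1.15 and the old ones -0.071, 0, -0.14 and 0.51. Young replicate 3 lay closest to the old arrays, yet the groups did not overlap. The change was 0.94 ± 0.19 (SE), 1.92-fold, with an adjusted p of 0.00245, and it held under every alternative run and whichever array was left out.

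In cortical Drd2 cells Apoe read -0.70, -0.89, -0.69 and -0.75 at 6 weeks and 0.12, -0.10, 0.094 and -0.23 at 2 years. The young arrays lay within a narrow band and all old arrays lay above it. The change was 0.73 ± 0.19 (SE), 1.66-fold, with an adjusted p of 0.0277, and Apoe was the only one of the 8 genes called in a comparison with 3.63% of features called. This call was lost when any of old cortex Drd2 replicates 1, 2 or 3 or young cortex Drd2 replicates 2, 3 or 4 was left out (change 0.68 to 0.75, adjusted p 0.0549 to 0.114). It was also lost without the 6 arrays of high median (adjusted p = 0.0782).

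In Drd1a cells Apoe was not called with age. The cortical Drd1a arrays read 0.77, 0.53, 0.79 and 0.68 at 6 weeks and 0.41, 1.04, 1.21 and 1.39 at 2 years, with old replicate 1 below all young arrays, and the change was 0.32 ± 0.19 (SE, adjusted p = 0.662). No gene of the 8 was called there, where 0.453% of features were. In striatal Drd1a cells the young arrays read -0.18, -0.56 and 0.044 and the old ones 0.28, 0.074, -0.16 and 0.16, overlapping groups with a change of 0.32 ± 0.21 (SE, adjusted p = 0.513). The difference between the Drd1a and Drd2 age changes did not pass the test in cortex (-0.41, 95% interval -0.96 to 0.15, adjusted p = 0.764) or in striatum (-0.62, 95% interval -1.20 to -0.041, adjusted p = 0.819).

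Markers of other cells moved in the same comparisons. Of 13 measured astrocyte markers, 4 rose in cortical Drd2 and 5 in striatal Drd2 cells, and none was called in Drd1a cells of either region. The share of all features called was 3.63% and 5.70% in the Drd2 comparisons, and 0.453% in cortical and 3.43% in striatal Drd1a cells. Gfap, the astrocyte filament protein, rose by 1.21 ± 0.23 (SE) in cortical Drd2 cells (adjusted p = 0.00294). The mean of the 13 markers ran from -0.20 to 0.062 in young and from 0.065 to 0.71 in old cortex Drd2 arrays, and from -0.57 to -0.37 in young and from -0.17 to -0.072 in old striatum Drd2 arrays. In cortical Drd1a arrays it ran from 0.27 to 0.54 in young and from 0.44 to 0.83 in old, and in striatal Drd1a arrays from -0.50 to -0.074 and from -0.21 to -0.0054. Over the 31 arrays, which share group, region and processing, this mean had a Pearson r of 0.78 with Apoe and 0.74 with App, and of 0.46 with each after the group means were taken out. It is not particular to these genes: Mapt had a higher r with the same mean, 0.87, and 0.42 within groups. Of 14 oligodendrocyte markers, 3 rose in cortical Drd2, 1 in striatal Drd2 and 2 in cortical Drd1a cells, and 1 fell in striatal Drd1a cells. Their mean ran from -0.061 to 0.030 in young and from 0.031 to 0.67 in old cortex Drd2 arrays, and from -0.18 to 0.23 in young and from 0.21 to 0.32 in old striatum Drd2 arrays, where the ranges overlapped. With this mean App had a Pearson r of 0.25 over the 31 arrays and 0.60 within groups, and Apoe -0.12 and 0.54. Among 14 microglia markers 1 rose and 1 fell in striatal Drd2 cells, and none was called in the other 3 age comparisons. Tyrobp, a microglial signalling adaptor, was the marker that rose, by 0.95 ± 0.23 (SE, adjusted p = 0.0100). The size of the fall in the other marker is not given here, so Tyrobp does not stand for the list. With the mean of the microglia markers App had a Pearson r of 0.21 over the 31 arrays and 0.47 within groups, and Apoe -0.12 and 0.45. Markers of direct-pathway neurons also rose in Drd2 arrays, 3 of 7 in cortex and 5 of 7 in striatum, and none was called in Drd1a arrays. The interaction test called 1 of 7 in cortex and 3 of 7 in striatum, beside 0.104% and 0.0734% of all features. Whether these cells take part in the Apoe and App changes was not tested, and since values are relative, it cannot be said which markers are at 0.

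**Figure D3:**
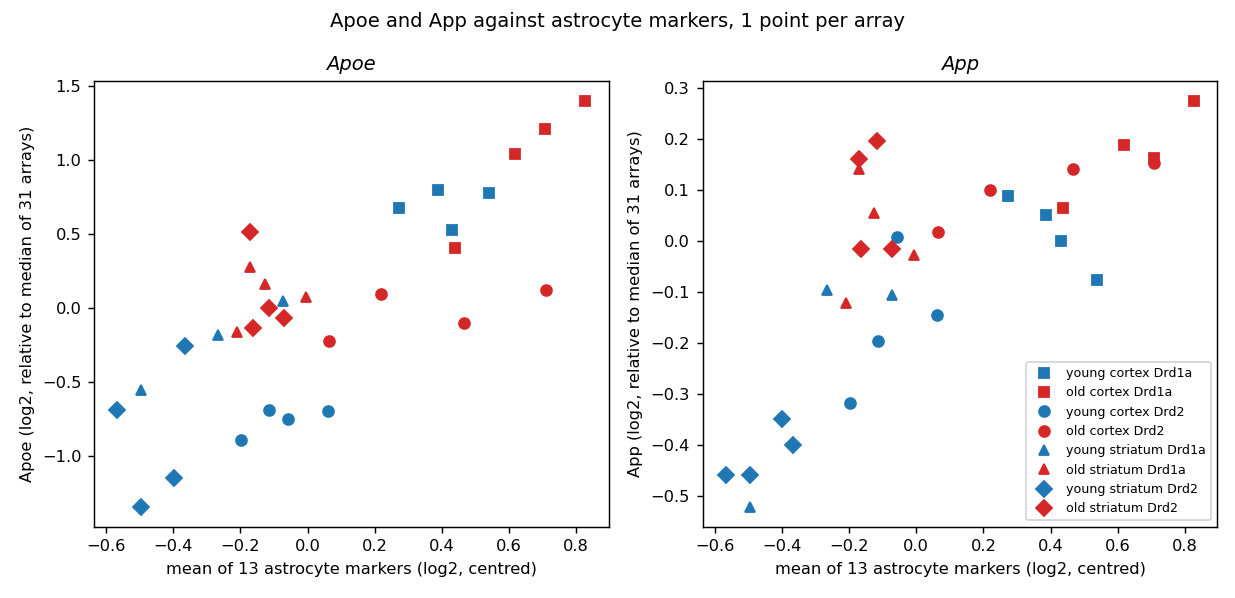
Apoe (left) and App (right) against the mean of 13 astrocyte markers, 1 point per array, log2 relative to each gene's median; colour gives age and shape the region and cell type. The Pearson r over the 31 arrays is 0.78 for Apoe and 0.74 for App, and 0.46 for each within groups. Mapt, not drawn, had 0.87 over the 31 arrays and 0.42 within groups.

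Of 17 measured genes for apolipoprotein E receptors and lipid handling, Apoe included, 5 rose and none fell in the mean age change, beside 5.07% of all features called in either direction. Apod, another lipid-binding apolipoprotein, was 1.26 ± 0.16 (SE) higher, 2.39-fold, with an adjusted p of 2.85e-06. Lrpap1, the chaperone of the LDL receptor family, rose by 0.58 ± 0.0995 (SE) in striatal Drd2 cells with an adjusted p of 4.53e-04. The list had 1 gene called in cortical Drd1a, 4 in cortical Drd2, 1 in striatal Drd1a and 5 in striatal Drd2 cells, all higher. The share of all features called was 0.453%, 3.63%, 3.43% and 5.70%, and the list's median change was 0.10, 0.16, 0.058 and 0.20, in that order. Sorl1 belongs to both this list and the amyloid list. It is counted in the mean age change of both and was the gene called in striatal Drd1a cells in each. Sorl1 was also called in cortical Drd2 cells (0.41, adjusted p = 0.0374 by limma) and is counted there in both lists. When 1 array was left out, the Sorl1 call was lost in 5 of 8 fits for cortical Drd2 cells. For striatal Drd1a cells it was lost in 6 of 7.

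Mapt and Htt, both higher, were the 2 of 8 genes called with age in striatal Drd1a cells, where 3.43% of features were called. The change was positive in 6 of the 8 genes. Mapt read -0.57, -0.53 and -0.57 in the young arrays and -0.18, 0.098, 0.075 and -0.41 in the old ones, all of them above the young. The change was 0.45 ± 0.12 (SE), 1.37-fold, with an adjusted p of 0.0258. Htt read -0.37, -0.058 and -0.19 in young and 0.18, 0.16, 0.19 and 0.051 in old arrays, again without overlap. The Htt change was 0.35 ± 0.090 (SE), 1.28-fold, with an adjusted p of 0.0245. With only the 7 arrays compared in the fit, the adjusted p rose to 0.153 for both. The Mapt call was lost without old striatum Drd1a replicate 2 or 3 or young replicate 1 or 3 (adjusted p 0.0681 to 0.118) and without the arrays of high median (adjusted p = 0.0939). The Htt call was lost without old replicate 1 or 3 or young replicate 1 or 3 (adjusted p 0.0572 to 0.211).

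In the other age comparisons Mapt changed by 0.028 ± 0.11 (SE) in cortical Drd1a, 0.18 ± 0.11 (SE) in cortical Drd2 and 0.20 ± 0.11 (SE) in striatal Drd2 cells, and none was called. With array weights, Mapt in striatal Drd2 cells was called (0.34, adjusted p = 0.0273). Htt changed by 0.022 to 0.11 in these 3 comparisons. The region interactions in Drd1a cells were 0.42 ± 0.16 (SE) for Mapt and 0.33 ± 0.12 (SE) for Htt, with adjusted p-values of 0.549 and 0.537.

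Among 20 measured genes of tau and its kinases, 1 fell and none rose in the mean age change, a share close to the 5.07% called over all features. That gene was Fyn, a Src-family kinase that phosphorylates tau, which fell by 0.28 ± 0.035 (SE) with an adjusted p of 1.72e-06. With array weights its fall of 0.26 came to just under 1.2-fold. Mark3, a kinase of microtubule-associated proteins, fell by 0.33 ± 0.060 (SE) in striatal Drd2 cells (adjusted p = 8.00e-04). Among 16 huntingtin partners and polyglutamine disease genes, Htt included, 2 rose and none fell in the mean age change. The share over all features was again 5.07%. Hap1, a huntingtin-binding transport adaptor, was 0.48 ± 0.065 (SE) higher with an adjusted p of 6.29e-06. In striatal Drd2 cells Atxn3, a deubiquitinase with a glutamine tract, rose by 0.54 ± 0.099 (SE, adjusted p = 8.57e-04), while Atxn1, the ataxia gene of the same repeat class, fell by 0.44 ± 0.078 (SE, adjusted p = 5.33e-04).

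Lrrk2, Park7 and Pink1 were not called with age in any comparison. In cortical Drd1a cells Lrrk2 read -1.47, -0.66, -0.70 and -0.42 at 6 weeks and -0.26, -0.46, -0.53 and -0.50 at 2 years, with young replicate 1 far below the rest and the groups overlapping. The change was 0.37 ± 0.16 (SE, adjusted p = 0.400). The other 3 changes of Lrrk2 ran from -0.27 to -0.040. In cortex the Drd1a change exceeded the Drd2 change by 0.64 ± 0.22 (SE), with an unadjusted p of 0.00697 and an adjusted p of 0.394. The age changes of Park7 lay between -0.0088 and 0.052, and those of Pink1 between -0.053 and 0.19.

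Across the 4 interaction tests none of the 8 genes was called. Over all features these tests called 0.104% for age by cell type in cortex, 0.0734% in striatum, 0% for age by region in Drd1a cells and 0.0184% in Drd2 cells. In limma's unadjusted results at 0.05, Lrrk2 and Bace1 passed in cortex, Apoe in striatum, and Mapt, Htt and Bace1 for the region test in Drd1a cells. The shares above are for adjusted calls. The share of all features passing at the unadjusted level is not given here, so these passes cannot be judged as a set.

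Of 14 measured Parkinson genes none was called in the mean age change, and of 20 mitophagy genes 1 rose and 1 fell. Among 20 Rab substrates and partners of LRRK2, 1 rose and 2 fell. With 5.07% of all features called in this contrast, the Parkinson and mitophagy counts differ little from that share. Rab8b rose by 0.32 ± 0.047 (SE, adjusted p = 1.73e-05) and its paralogue Rab8a fell by 0.29 ± 0.036 (SE, adjusted p = 1.45e-06); both are substrates of the kinase. Rab35, another substrate that acts in endosomal recycling, fell by 0.59 ± 0.11 (SE) in striatal Drd2 cells with an adjusted p of 7.17e-04. These 3 calls held under every alternative run and whichever array was left out.

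Between cell types, Apoe and Lrrk2 differed in opposite directions, and the 6 calls among the 8 genes were made in cortex. Whether these differences are larger in cortex than in striatum was not tested. In the mean over the 4 age and region pairs, with 7.18% of features called, Apoe was 0.78 ± 0.098 (SE) higher in Drd1a cells (adjusted p = 6.05e-07) and Lrrk2 fell by 0.47 ± 0.079 (SE) relative to Drd2 cells (adjusted p = 5.55e-05). In young cortex, where 12% of features were called, 4 of the 8 genes were: Apoe, Mapt and Bace1 higher and Lrrk2 lower in Drd1a cells. In old cortex, with 6.48% called, Apoe and Lrrk2 were called in the same directions. None of the 8 was called in young striatum (3.05% of features) or old striatum (2.81%).

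Apoe in young cortex read 0.53 to 0.79 in Drd1a and -0.89 to -0.69 in Drd2 arrays, wide apart. The difference was 1.45 ± 0.19 (SE), 2.73-fold, with an adjusted p of 2.79e-06, and in old cortex it was 1.04 ± 0.19 (SE), 2.06-fold, with an adjusted p of 7.21e-04. In young striatum the difference of 0.63 ± 0.21 (SE) had an adjusted p of 0.106 and overlapping groups; without young striatum Drd2 replicate 3 it was 0.83 (adjusted p = 0.0145). App in young striatum differed by 0.17 ± 0.089 (SE, adjusted p = 0.440), and by 0.31 without young striatum Drd1a replicate 2 (adjusted p = 0.0411). In old striatum the Apoe difference was 0.011 ± 0.19 (SE), with a 95% interval from -0.38 to 0.40.

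Lrrk2 in young cortex read -1.47, -0.66, -0.70 and -0.42 in the Drd1a arrays and 0.093, 0.42, 0.62 and 0.43 in the Drd2 arrays. The 2 groups did not overlap, and the difference was -1.20 ± 0.16 (SE), 2.30-fold, with an adjusted p of 2.09e-06. In old cortex the Drd2 arrays read -0.061, 0.38, -0.085 and 0.25, all above the Drd1a arrays, and the difference was -0.56 ± 0.16 (SE, adjusted p = 0.0253). That call was lost without old cortex Drd1a replicate 2, 3 or 4 or old cortex Drd2 replicate 2 or 4 (adjusted p 0.0572 to 0.109) and without the arrays of high median (adjusted p = 0.0548). The striatal differences of Lrrk2 were -0.16 and 0.036.

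Bace1 in young cortex ranged from 0.17 to 0.32 in Drd1a arrays and from -0.17 to -0.11 in Drd2 arrays. The difference was 0.35 ± 0.070 (SE), 1.28-fold, with an adjusted p of 6.56e-04. Mapt ranged from 0.33 to 0.45 in Drd1a and from -0.0041 to 0.20 in Drd2 arrays, a difference of 0.35 ± 0.11 (SE, adjusted p = 0.0271). The Mapt call was lost under quantile normalization (adjusted p = 0.0526) and without young cortex Drd1a replicate 1, 2 or 4 or Drd2 replicate 2, 3 or 4 (adjusted p 0.0578 to 0.0766).

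In cortex the Drd1a and Drd2 arrays also differed in lists of cell type markers. In young cortex 7 of 13 astrocyte markers were higher and 1 lower in Drd1a arrays, 5 of 8 cortical excitatory neuron markers were higher, and 8 of 9 striatal projection neuron markers were lower. In old cortex the counts were 2 higher of 13, 3 higher of 8 and 6 lower of 9. Of 9 markers of GABAergic and cholinergic interneurons, 3 were higher and 2 lower in Drd1a arrays of young cortex, and 4 higher and 2 lower in old cortex. Their mean ran from 0.78 to 1.09 in young cortex Drd1a and from 0.12 to 0.39 in young cortex Drd2 arrays, and from 0.80 to 1.00 and from 0.17 to 0.51 in old cortex. It had a Pearson r of 0.67 with Apoe over the 31 arrays and 0.65 within groups, the highest within-group value of Apoe with any marker list. Oligodendrocyte markers were lower in Drd1a arrays, 4 of 14 in young and 6 of 14 in old cortex, with a mean from -0.34 to -0.26 in young cortex Drd1a arrays. Over all features 12% were called in young and 6.48% in old cortex. The mean of the striatal projection neuron markers, which had a Pearson r of 0.81 with Lrrk2 over the 31 arrays and 0.55 within groups, ran from -1.01 to -0.56 in young cortex Drd1a and from -0.056 to 0.12 in young cortex Drd2 arrays. In old cortex it ran from -0.68 to -0.45 in Drd1a and from -0.28 to -0.044 in Drd2 arrays. Whether these markers come from the marked cells themselves or from other cells was not tested, nor was their part in the differences.

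Between regions Mapt was lower in striatum in all 4 comparisons. The young Drd1a arrays read 0.45, 0.41, 0.33 and 0.42 in cortex and -0.57, -0.53 and -0.57 in striatum, without overlap. The difference was -0.96 ± 0.12 (SE), 1.95-fold, with an adjusted p of 3.24e-07. It was -0.52 in young Drd2, -0.54 in old Drd1a and -0.50 in old Drd2 cells, with adjusted p-values of 0.00174, 5.15e-04 and 0.00202, and the groups overlapped in none. In the mean, with 15.8% of features called, the Mapt difference was -0.63 ± 0.055 (SE), with an adjusted p of 2.29e-10. These 5 calls of Mapt held under every alternative run and whichever array was left out.

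Apoe and Lrrk2 differed between regions in Drd1a cells, in opposite directions. Among young Drd1a cells, with 19.0% of features called, 4 of 8 genes were: Apoe (-0.92 ± 0.21 SE, adjusted p = 0.00128), Mapt and Bace1 (-0.36 ± 0.076 SE, adjusted p = 7.50e-04) lower in striatum and Lrrk2 higher (0.86 ± 0.17 SE, adjusted p = 2.94e-04). In old Drd1a cells, with 16.1% called, 3 of 8 were, with Apoe at -0.92 ± 0.19 (SE, adjusted p = 6.73e-04) and Lrrk2 at 0.44 ± 0.16 (SE, adjusted p = 0.0455). The old Lrrk2 groups overlapped, since old striatum Drd1a replicate 2 read -0.32. That Lrrk2 call was lost with arrays centred on their median (adjusted p = 0.0624), with a random block joining equal replicate numbers across regions (adjusted p = 0.0588), without the arrays of high median (adjusted p = 0.0509), and without old cortex Drd1a replicate 2, 3 or 4 or old striatum Drd1a replicate 1, 3 or 4 (adjusted p 0.0790 to 0.142).

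In Drd2 cells Mapt was the only one of the 8 genes called between regions, with 7.58% of features called in young and 11.3% in old cells. Apoe differed by -0.10 ± 0.19 (SE) in young and 0.11 ± 0.19 (SE) in old Drd2 cells; under quantile normalization the young value was 0.63 and called (adjusted p = 0.0101). In the mean over the 4 pairs the Apoe difference, striatum minus cortex, was -0.46 ± 0.098 (SE, adjusted p = 3.47e-04), but -0.17 under quantile normalization (adjusted p = 0.115). App (-0.17, adjusted p = 0.00157), Pink1 (0.15, adjusted p = 0.00371) and Lrrk2 (0.24, adjusted p = 0.0172) passed the limma test of the mean region difference but stayed under 1.2-fold. Leaving out old cortex Drd2 replicate 2, old striatum Drd1a replicate 2, young cortex Drd1a replicate 4 or young striatum Drd2 replicate 1 brought Lrrk2 to 0.26 to 0.27 and over the threshold. App in young cells was -0.26 in Drd1a (adjusted p = 0.0397) and -0.25 in Drd2 (adjusted p = 0.0548), and with arrays centred on their median both were called, at -0.31 and -0.28. Both were also called without the arrays of high median (-0.32 and -0.28). The Drd1a value was called without young cortex Drd1a replicate 1 or young striatum Drd1a replicate 1 or 3 (-0.33 to -0.29), and the Drd2 value without young cortex Drd2 replicate 2 (-0.30). Pink1 in young Drd2 cells was 0.23 (adjusted p = 0.0694), and 0.27 and called under quantile normalization (adjusted p = 0.0221).

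Astrocyte markers were lower in striatum in 9, 4, 9 and 7 of 13 for young Drd1a, young Drd2, old Drd1a and old Drd2 cells, with 1 higher in each. Over all features, 19.0%, 7.58%, 16.1% and 11.3% were called in these comparisons, in either direction. Cortical excitatory neuron markers were lower in 6, 5, 6 and 5 of 8. Interneuron markers were lower in 5 of 9 in each of the 4. The mean of the cortical excitatory markers had a Pearson r of 0.88 with Mapt over the 31 arrays and 0.68 within groups. Other lists came close over the 31 arrays: 0.87 for astrocyte, 0.84 for interneuron and -0.76 for striatal projection neuron markers. Within groups these were 0.42, -0.14 and 0.067. The part of these cells in the region differences was not tested.

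**Figure D4:**
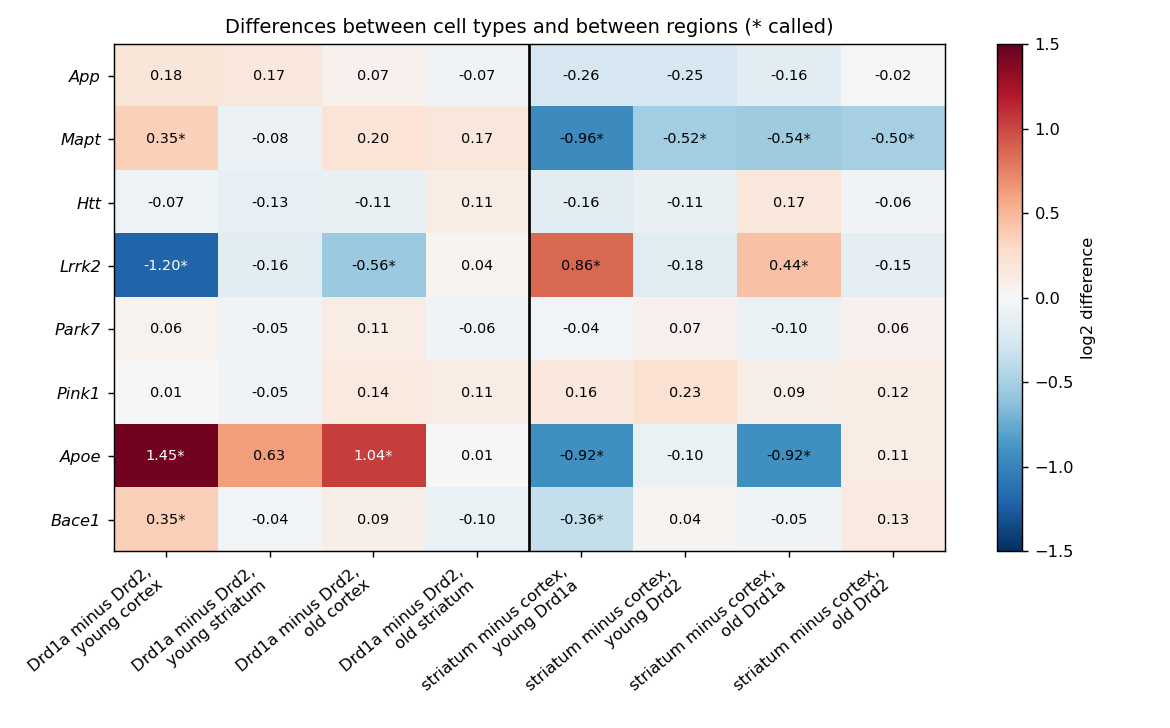
Log2 difference of each gene between Drd1a and Drd2 cells (left 4 columns) and between striatum and cortex (right 4 columns); red is higher and blue lower in the group named before the minus sign, and an asterisk marks a called difference. Mapt is lower in striatum in all 4 columns, from -0.96 to -0.50, and Apoe and Lrrk2 carry opposite signs in cortex and in Drd1a cells.

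Some other genes of the same pathways also differed by region or cell type. Mme, the amyloid-degrading protease neprilysin, fell by 0.87 ± 0.097 (SE) in Drd1a relative to Drd2 cells (adjusted p = 9.52e-08) and was 0.84 ± 0.097 (SE) higher in striatum (adjusted p = 4.32e-08). Sncb, which encodes beta-synuclein, fell by 0.96 ± 0.060 (SE) in striatum relative to cortex (adjusted p = 1.60e-13), and Clu, the lipoprotein clusterin, fell by 0.68 ± 0.074 (SE, adjusted p = 1.48e-08). Lpl, lipoprotein lipase, was 0.69 ± 0.065 (SE) higher in striatum with an adjusted p of 8.86e-10. In the mean region difference, where 15.8% of all features were called, the counts were 2 higher and 4 lower of 20 amyloid genes, 1 and 3 of 20 tau genes, 0 and 4 of 14 Parkinson genes, 2 and 3 of 16 huntingtin partners, 2 and 2 of 20 mitophagy genes, 0 and 2 of 20 LRRK2 partners and 3 and 4 of 17 lipid genes. Several of these shares lie near that of all features, such as 4 of 20 tau and 4 of 20 mitophagy genes. In the mean cell type difference, with 7.18% of all features called, they were 1 and 1, 0 and 2, 0 and 1, 1 and 1, 0 and 1, 0 and 1, and 4 and 0, in the same order of lists. Most of these shares also lie near that of all features, while the lipid list, with 4 of 17, lies above it. Lrrk2 accounts for the single Parkinson gene and the single LRRK2 partner that were lower in Drd1a cells. Vps35, lower in striatum in the mean region difference, is likewise counted in both of these lists.

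Ranked by group mean, App was highest in old cortex Drd1a (0.17 ± 0.086, SD, n = 4) and lowest in young striatum Drd2 (-0.42 ± 0.053, SD, n = 4). Mapt was highest in old cortex Drd1a (0.43 ± 0.065, SD, n = 4) and lowest in young striatum Drd1a (-0.56 ± 0.024, SD, n = 3), and its 4 cortical groups ranked above its 4 striatal groups. Apoe ran from 1.01 ± 0.43 (SD, n = 4) in old cortex Drd1a to -0.86 ± 0.49 (SD, n = 4) in young striatum Drd2. Lrrk2 ran from 0.39 ± 0.22 (SD, n = 4) in young cortex Drd2 to -0.81 ± 0.45 (SD, n = 4) in young cortex Drd1a. Neighbours in these orders overlapped in their array ranges for all 8 genes, with 4 exceptions. Apoe had no overlap between young cortex Drd1a and old striatum Drd1a, nor between young striatum Drd1a and young cortex Drd2. Lrrk2 had none between old striatum Drd2 and old cortex Drd1a, and Park7 none between young cortex Drd1a and young striatum Drd1a. The Park7 gap was only 0.042, and that difference was not called (adjusted p = 0.654 by limma). How often such gaps occur over all features is not given here, so the 4 cannot be judged as a set.

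The patterns of the 8 genes were compared with those of all features by Pearson r over the 31 arrays, given as a description. Nearest to Mapt were Snap91 (0.96), Dnm1 (0.95) and Syn2 (0.95), genes of synaptic vesicle recycling, with 0.73, 0.80 and 0.66 after group means were taken out. Nearest to App were Clstn1 (0.91), Cds2 (0.91) and Ncam1 (0.90), and nearest to Lrrk2 were Lrrc49 (0.87), Elmo1 (0.87) and Coro2b (0.86). Apoe lay nearest to Gab2 (0.88), Nell2 (0.88) and Ctsl (0.87), and Bace1 to Gpm6a (0.80), Grn (0.74) and Hacd2 (0.72). Htt lay nearest to Pcm1 (0.82), Tnpo1 (0.78) and Polr2b (0.77), Pink1 to Polm (0.77), Arhgef15 (0.75) and Thap3 (0.74), and Park7, which varied least, to Sri (0.65), Abt1 (0.63) and Sln (0.58). Among pairs of the 8 genes, App and Apoe were most alike (0.75, and 0.52 within groups), and Apoe and Lrrk2 most opposed (-0.71, and -0.037 within groups).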

How the data were processed

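RNA purified with tagged ribosomes was measured on 31 arrays in 8 groups taken from the sample labels. The arrays were processed with RMA on genome build mm8, per the submitters' processing notes. The authors deposited log2 values in which the median of every feature is about 0, so no absolute level, signal over background or filter on dim features was available. In 3 deposited columns, 1 cell each exceeded 100 in size. These, with 1 blank cell, were treated as missing and the fit used the remaining arrays. The features missing a cell are none of the 8 genes. Of the features, 14793 carry 1 symbol in the platform's gene table, 814 several and 738 are not listed.

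limma 3.58.1 in R 4.3.3 fitted 1 mean per group on all 31 arrays, with 23 residual degrees of freedom and prior degrees of freedom of 4.68. Two-sided tests of 19 contrasts were adjusted over 16345 features. Interactions are the Drd1a minus the Drd2 age change, and the striatal minus the cortical. The 8 genes, the pathway and marker lists and the alternatives were chosen with earlier results of these data known. Named from each pathway list were up to 3 called genes with the largest change per age comparison and mean contrast; those described are among them. For each of the 8 genes the 3 genes of highest Pearson r were named. The alternatives were quantile normalization, median centring, only the groups compared, a replicate block, array weights, a random block, a trended robust variance, no fold threshold and leaving out each array; leaving out the 6 arrays with a median above 0.05 was added after the medians were seen. The fit was tested on simulated data with changes set for the age comparisons in cortical Drd2 and striatal Drd1a cells. Of changes of 1.2-fold it recovered 26% and 12%, and of changes of 1.5-fold 86% in each. A gene not called may therefore still have changed by about the fold threshold. Promoters came from a RefSeq table of build GRCm38.p6.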

Additional observations from a re-analysis of the deposited data

Results flagged for a closer look

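In 56 groups of 4 arrays, the highest or lowest array was set against its neighbour, a comparison that by chance singles out about 1 group in 20, and 2 arrays stood apart. Mapt read 0.20 in young cortex Drd2 replicate 1, where the nearest of the other 3 arrays read 0.0088. Pink1 read 0.23 in young striatum Drd2 replicate 2, where the nearest other array read 0.053.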

How the results depend on the processing

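The number of the 8 genes called moved by over 1.5 times in the comparisons given next. For age in cortical Drd2 cells it was 1, and 2 with array weights, 2 with quantile normalization, 0 without the 6 arrays of high median and 0 to 1 with arrays left out in turn. For age in striatal Drd1a cells it was 2, and 0 with only the groups compared, 1 without the arrays of high median and 0 to 2 with arrays left out. For Drd1a against Drd2 it was 2 in old cortex, with 1 without the arrays of high median and 1 to 2 with arrays left out, and 0 in young striatum, with 0 to 1. For striatum against cortex in young Drd2 cells it was 1, and 2 with median centring, 3 with quantile normalization, 2 without the arrays of high median and 1 to 2 with arrays left out. The mean age change had 2, and 4 with no fold threshold and 1 to 2 with arrays left out; the mean region difference had 2, and 5 with no fold threshold and 1 with quantile normalization. Smaller shifts, of 1 gene, were seen for age in striatal Drd2 cells (2, and 3 with array weights), Drd1a against Drd2 in young cortex (4, and 3 with quantile normalization or some arrays left out), striatum against cortex in young Drd1a (4, up to 5) and old Drd1a cells (3, down to 2), the mean cell type difference (2, and 3 with no fold threshold) and the mean region difference (2, up to 3 with arrays left out). Apoe between regions in young Drd2 cells, not called at -0.10, was 0.63 under quantile normalization. The cause of these shifts was not tested, other than that a fit on only the groups compared has fewer arrays. Over all features the counts moved most with only the groups compared: 21 for 74 in cortical Drd1a, 55 for 594 in cortical Drd2, 73 for 561 in striatal Drd1a and 469 for 932 in striatal Drd2 cells. With a replicate block, App and Apoe rose by 0.29 and 0.57 in the mean age change and no call of the 8 genes changed. The replicate numbers were not taken as pairs: in no comparison did every same-numbered pair correlate above 0.1, and the lowest and highest of these correlations were -0.36 and 0.35. In Drd1a against Drd2 of young cortex, 4 of 4 arrays correlated best with their own number, a hint from the data only. Of 69 results for named pathway genes, 43 stayed called under every alternative for the whole set, 44 whichever array was left out, and 0 reversed.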
